A study of Mus musculus with 4 samples.

Results

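Neutrophil granule genes encode the antimicrobial proteins and proteases that neutrophils store in granules, together with the calcium-binding proteins that fill their cytosol. The 10 genes described here were taken by name from a table of 41214 genes, and all 10 were found in it. They were *S100a8*, *S100a9*, *Ngp*, *Camp*, *Ltf*, *Lcn2*, *Mpo*, *Elane*, *Prtn3* and *Mmp9*. They were measured in RNA-seq of unstimulated B220+ splenocytes, a fraction made up mainly of B cells, from MIZ-1WT and MIZ-1△POZ mice on a C57BL/6 background. MIZ-1△POZ mice carried *Miz-1* with a floxed POZ domain and a Cre recombinase driven from *Mb1*, which is active in B cells, and the control mice were labelled WT, with no statement in the sources used here of whether they carried Cre. The study used young adult mice, and positive selection with B220 antibody and magnetic beads followed lysis of red cells. There were 2 biological replicates of each of the 2 genotypes. Their levels were compared between the genotypes and between single libraries.

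Granule proteins are made in a set order as a neutrophil matures in the bone marrow. Promyelocytes make the contents of the primary, or azurophil, granules, myelocytes make those of the secondary, or specific, granules, and later stages make the gelatinase granules. *S100a8* and *S100a9* remain highly expressed in circulating neutrophils, whereas transcription of the primary granule genes has largely ceased by then. In the mouse, extramedullary granulopoiesis can take place in the splenic red pulp.

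Libraries were of similar depth, with 43026814 to 46387209 counts on genes. *Zbtb17*, which encodes MIZ-1, had 2087 and 1946 counts in MIZ-1WT and 1774 and 1669 in MIZ-1△POZ, and counts over all exons do not show whether the POZ exons were lost. *Xist* had at least 38145 counts in MIZ-1△POZ and at most 60 in MIZ-1WT libraries, so sex and genotype cannot be told apart here. A list of 10 pan-B cell genes, *Ms4a1* among them, summed to between 10277.0 and 12016.1 CPM (counts scaled to library size and composition with TMM factors) and was present in each library as the label states.

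Positions refer to GRCm38 and were read from GENCODE. *S100a8* (ENSMUSG00000056054, chromosome 3, 90668978 to 90670035) and *S100a9* (ENSMUSG00000056071, chromosome 3, 90692632 to 90695721) lie 22596 bases apart on opposite strands. *Camp* (ENSMUSG00000038357, chromosome 9, 109847379 to 109849617), *Ngp* (ENSMUSG00000032484, chromosome 9, 110419747 to 110423012) and *Ltf* (ENSMUSG00000032496, chromosome 9, 111019271 to 111042767) follow each other in this order on the same chromosome. *Prtn3* (ENSMUSG00000057729, chromosome 10, 79874476 to 79883174) ends 3072 bases before *Elane* (ENSMUSG00000020125, chromosome 10, 79886247 to 79888215). *Lcn2* (ENSMUSG00000026822, 32384633 to 32388252) and *Mmp9* (ENSMUSG00000017737, 164940780 to 164955850) lie far apart on chromosome 2, and *Mpo* (ENSMUSG00000009350, 87793581 to 87804413) lies on chromosome 11. All 10 genes are protein coding. Exons of *Mpo* and *Prtn3* overlap those of *Gm11505* and *Plppr3* on the opposite strand, over 512 and 159 bases, and the strand setting of the counting is not given in the sources used here.

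RefSeq promoter windows (GRCm38.p6, 250 bases before to 50 bases after the annotated start) were matched for 9 of the 10 genes by symbol. Those of the 5 genes that the comparisons below turn on are shown, because *S100a8* and *S100a9* were the most abundant and *Ngp*, *Camp* and *Ltf* had both MIZ-1△POZ libraries above both MIZ-1WT libraries, as did 37.2% of all genes tested. Capitals mark letters TTGCNNAA, part of the C/EBP consensus, and GAGGAA, the core bound by PU.1, each on either strand, and TATAAA on the strand of the gene. C/EBP factors and PU.1 are the main transcription factors of granulocyte development.
S100a8 (chr3:90668821-90669120, plus strand): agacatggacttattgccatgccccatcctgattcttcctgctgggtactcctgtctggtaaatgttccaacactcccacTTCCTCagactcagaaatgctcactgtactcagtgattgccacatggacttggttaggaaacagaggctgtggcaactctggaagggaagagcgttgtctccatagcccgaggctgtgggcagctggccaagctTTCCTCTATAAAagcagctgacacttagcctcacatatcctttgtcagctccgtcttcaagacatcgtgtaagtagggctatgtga
S100a9 (chr3:90695672-90695971, minus strand): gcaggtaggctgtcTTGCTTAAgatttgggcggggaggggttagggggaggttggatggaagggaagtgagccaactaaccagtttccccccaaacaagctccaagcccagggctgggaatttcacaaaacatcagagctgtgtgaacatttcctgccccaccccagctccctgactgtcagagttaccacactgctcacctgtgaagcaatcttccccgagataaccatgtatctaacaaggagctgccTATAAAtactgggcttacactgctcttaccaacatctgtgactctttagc
Ngp (chr9:110419558-110419857, plus strand): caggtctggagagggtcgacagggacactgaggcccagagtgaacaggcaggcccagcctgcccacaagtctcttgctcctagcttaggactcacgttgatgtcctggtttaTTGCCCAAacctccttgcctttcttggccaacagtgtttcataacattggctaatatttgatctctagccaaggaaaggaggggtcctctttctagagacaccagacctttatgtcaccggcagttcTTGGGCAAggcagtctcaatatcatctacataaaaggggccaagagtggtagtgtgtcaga
Camp (chr9:109849407-109849706, minus strand): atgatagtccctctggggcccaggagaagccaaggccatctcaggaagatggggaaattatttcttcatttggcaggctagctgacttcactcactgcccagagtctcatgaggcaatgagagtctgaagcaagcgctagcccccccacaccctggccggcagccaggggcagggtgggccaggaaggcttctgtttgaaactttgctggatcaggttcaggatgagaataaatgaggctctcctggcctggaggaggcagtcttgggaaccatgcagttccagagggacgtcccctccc
Ltf (chr9:111019042-111019341, plus strand): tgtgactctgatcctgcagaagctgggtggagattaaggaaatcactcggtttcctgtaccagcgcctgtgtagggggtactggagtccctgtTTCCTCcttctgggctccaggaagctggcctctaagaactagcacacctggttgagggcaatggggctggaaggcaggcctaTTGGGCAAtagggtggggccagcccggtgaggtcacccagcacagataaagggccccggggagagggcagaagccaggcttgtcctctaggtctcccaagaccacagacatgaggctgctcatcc

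The C/EBP letters were found once in the windows of *S100a9* and *Ltf* and at 2 places in that of *Ngp*. Over all 9 windows, 4 held them, against 10.8% of 27025 promoters of the same length. The PU.1 core stood in 6 of the 9 windows, against 28.3% of all promoters. In *S100a8* one PU.1 core runs directly into TATAAA, so that 12 letters in a row are in capitals. TATAAA was found in *S100a8* and *S100a9* among the members, and in 8.88% of all promoters, and in *S100a9* it begins at the annotated start itself, base 251 of the window. None of these letters was found in the window of *Camp*. A match describes the sequence and does not show that a factor is bound.

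*S100a8* and *S100a9* were the most abundant members in every library. Their products form calprotectin, a heterodimer that binds calcium, zinc and manganese and makes up much of the neutrophil cytosol. *S100a9* had 357 and 88 counts in MIZ-1WT replicates 1 and 2, and 180 and 311 counts in MIZ-1△POZ replicates 1 and 2. The highest and the lowest value thus came from the same genotype, MIZ-1WT, and the MIZ-1△POZ values lay between them. *S100a8* had 212 and 72 counts in the MIZ-1WT replicates while MIZ-1△POZ replicates 1 and 2 had 125 and 236, so the genotypes overlapped here as well. The level of *S100a8* averaged 3.29 CPM in MIZ-1WT (SD 2.22, n = 2), and the MIZ-1△POZ libraries had 2.63 and 5.38 CPM. Its log2 fold change, given throughout as MIZ-1△POZ over MIZ-1WT, was 0.28 with a standard error of 0.54. The adjusted p was 0.711 by the quasi-likelihood test of edgeR, Benjamini-Hochberg adjusted across 14554 genes. For *S100a9* it was 0.07 (standard error 0.62, edgeR adjusted p = 0.933), with a 95% confidence interval from -1.46 to 1.60. Neither gene differed beyond the spread between replicates, and the interval leaves room for a change of more than 2-fold either way.

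**Figure D1:**
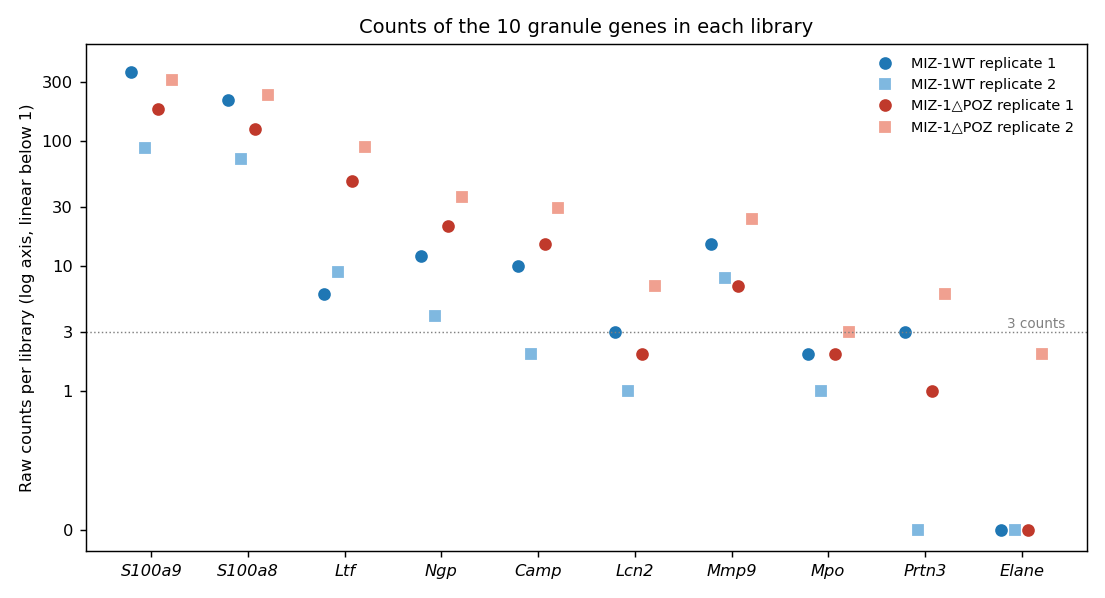
Raw counts of the 10 granule genes in each of the 4 libraries, on a log axis that is linear below 1. Blue marks MIZ-1WT, red marks MIZ-1△POZ, circles mark replicate 1 and squares replicate 2. Both MIZ-1△POZ points lie above both MIZ-1WT points for *Ltf*, *Ngp* and *Camp*, whereas the MIZ-1WT points of *S100a9* (357 and 88 counts) enclose those of MIZ-1△POZ.

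Within genotypes, 1 library stood above the other for nearly all members. MIZ-1WT replicate 1 exceeded MIZ-1WT replicate 2 for *S100a9* by a ratio of 3.91 in CPM (exact 95% interval 3.09 to 4.99, counting error only) and for *S100a8* by a ratio of 2.84 (2.16 to 3.76). MIZ-1△POZ replicate 2 exceeded MIZ-1△POZ replicate 1 by a ratio of 1.87 for *S100a9* (1.55 to 2.26) and 2.05 for *S100a8* (1.64 to 2.56). These ratios compare libraries, not conditions. In MIZ-1WT, 8 of the 10 genes were higher in replicate 1, while *Ltf* was lower there and *Elane* had 0 counts in both. In MIZ-1△POZ, all 10 were higher in replicate 2. MIZ-1WT replicate 1 lay at least 2-fold above replicate 2 for 4 of the 6 members tested, against 1.64% of all genes tested. MIZ-1△POZ replicate 2 lay at least 2-fold above replicate 1 for 4 of the 6 as well, against 1.44% of all genes tested. The shares over all genes were not matched for count, and some of the members had few counts. In MIZ-1WT the ratio had an exact 95% interval of 0.876 to 12.3 for *Ngp* (12 and 4 counts) and 1.03 to 45.2 for *Camp* (10 and 2 counts). Summed over the 10 genes, the levels were 14.2 and 4.40 CPM in MIZ-1WT replicates 1 and 2 and 8.42 and 16.9 CPM in MIZ-1△POZ replicates 1 and 2. *S100a8* and *S100a9* supplied between 73.5% and 91.8% of these counts.

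*Ltf* was the member that rose in MIZ-1△POZ. It encodes lactoferrin, the iron-binding protein of secondary granules. *Ltf* had 6 and 9 counts in MIZ-1WT replicates 1 and 2, against 48 and 90 in MIZ-1△POZ replicates 1 and 2. Both MIZ-1△POZ libraries lay far above both MIZ-1WT libraries. Mean CPM was 0.176 ± 0.0541 in MIZ-1WT and 1.53 ± 0.737 in MIZ-1△POZ (SD, n = 2 each). On the log2 scale the rise was 3.10, with a standard error of 0.51 and a 95% confidence interval from 1.84 to 4.36 (edgeR adjusted p = 0.00726). In bulk samples such as these, more cells of a type and more RNA per cell cannot be told apart. Marker lists of macrophages and monocytes, given with their values further on, were also higher in MIZ-1△POZ, and their part in the rise of *Ltf* was not tested. *Ltf* passed the filter of at least 10 counts in at least 2 libraries through the MIZ-1△POZ libraries, in which it was high. With each library left out in turn the log2 fold change stayed between 2.52 and 3.53, and the call was lost without MIZ-1WT replicate 1 (2.81, edgeR adjusted p = 0.0564). In every fit with a library left out, 1 genotype had a single sample, which was assumed to vary like the other genotype.

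*Ngp* and *Camp* encode proteins of the same cathelin-domain family, neutrophilic granule protein and the cathelicidin precursor, which is stored in secondary granules and releases an antimicrobial peptide. *Ngp* had 12 and 4 counts in MIZ-1WT and 21 and 36 in MIZ-1△POZ. *Camp* had 10 and 2 counts in MIZ-1WT and 15 and 29 in MIZ-1△POZ. For both genes each MIZ-1△POZ library lay above each MIZ-1WT library, but MIZ-1WT replicate 1 lay close to MIZ-1△POZ replicate 1. The log2 fold change was 1.73 for *Ngp* (standard error 0.58, edgeR adjusted p = 0.0589) and 1.77 for *Camp* (standard error 0.71, edgeR adjusted p = 0.0966), so neither passed the threshold. Without MIZ-1△POZ replicate 1, both passed, at 2.12 for *Ngp* (edgeR adjusted p = 0.0312) and 2.22 for *Camp* (edgeR adjusted p = 0.0477). Without MIZ-1WT replicate 1, which had most of the MIZ-1WT counts, the log2 fold change of *Camp* was 3.27, and without MIZ-1WT replicate 2 it was 1.07.

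*Lcn2* encodes lipocalin-2, a secondary granule protein that binds bacterial siderophores. It had 3 and 1 counts in MIZ-1WT and 2 and 7 in MIZ-1△POZ, too few for the filter. The summed counts gave a ratio of 2.11 (exact 95% interval 0.588 to 9.36, counting error only), so a difference was not detectable at this depth. Added to *Ngp*, *Camp* and *Ltf*, the secondary granule genes summed to 0.710 and 0.381 CPM in the MIZ-1WT replicates, against 1.81 and 3.69 CPM in the MIZ-1△POZ replicates.

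*Mmp9*, the gelatinase of tertiary granules, had 15 and 8 counts in MIZ-1WT and 7 and 24 in MIZ-1△POZ. Both the lowest and the highest value came from MIZ-1△POZ, and the log2 fold change was 0.35 (standard error 0.69, edgeR adjusted p = 0.717). The 95% confidence interval ran from -1.36 to 2.05. The fold change turned to -0.84 without MIZ-1△POZ replicate 2 and to -0.01 without MIZ-1WT replicate 2.

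The primary granule genes were at the limit of detection. They encode myeloperoxidase, which makes hypochlorous acid, and the serine proteases neutrophil elastase and proteinase 3. *Mpo* had 2 and 1 counts in MIZ-1WT and 2 and 3 in MIZ-1△POZ. *Prtn3* had 3 and 0 counts in MIZ-1WT and 1 and 6 in MIZ-1△POZ. *Elane* had 0 counts in 3 libraries and 2 counts in MIZ-1△POZ replicate 2. A count of 0 allows up to 3 counts, or between 0.0630 and 0.0714 CPM in these libraries, and intervals and limits cover counting error only. None of the 3 genes passed the filter, and no difference between genotypes was detectable at this depth. *Ctsg* and *Prss57*, which encode 2 further serine proteases of primary granules, were also near 0, with at most 5 counts in a library, and exons of *Prss57* overlap *Fstl3* on the opposite strand.

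Of the 10 genes, 6 passed the filter, and 1 of these (*Ltf*) passed the threshold of 0.05 on the adjusted p, as higher in MIZ-1△POZ. Across all 14554 genes tested, 40.0% passed this threshold and 21.1% did so as higher in MIZ-1△POZ. None of the 6 was lower, against 18.9% of all genes tested, and at an unadjusted p under 0.05 the higher members were *Ltf*, *Ngp* and *Camp*, against 26.0% of all genes. Under DESeq2's Wald test 1 member was higher, against 18.3% of all genes, and 0 were lower. The median log2 fold change was 1.04 over the 6 members and -0.01 over all genes tested. *Ltf* passed the filter through the MIZ-1△POZ libraries. *Ngp* and *Camp* had 10 or more counts in 1 MIZ-1WT library and needed MIZ-1△POZ libraries, in which they were high, to pass. The median therefore only describes the members that passed. It was 1.05 over all 10 with no filter on counts, and 0.19 with the 1 RPM filter described further on. *Ltf*, *Ngp* and *Camp* did not overlap between genotypes, with both MIZ-1△POZ libraries above both of MIZ-1WT, which held for 37.2% of all genes tested. Compared per kilobase of exon, mean levels in MIZ-1WT ran from 9.84 CPM per kilobase for *S100a9* and 4.73 for *S100a8* to 0.183 for *Camp* and 0.151 for *Ngp*, and were below 0.1 for the other 6. In MIZ-1△POZ the first positions were held by *S100a9* (10.4 CPM per kilobase) and *S100a8* (5.76), followed by *Camp* (0.644), *Ngp* (0.516) and *Ltf* (0.443). No difference between the last 3 was tested.

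**Figure D2:**
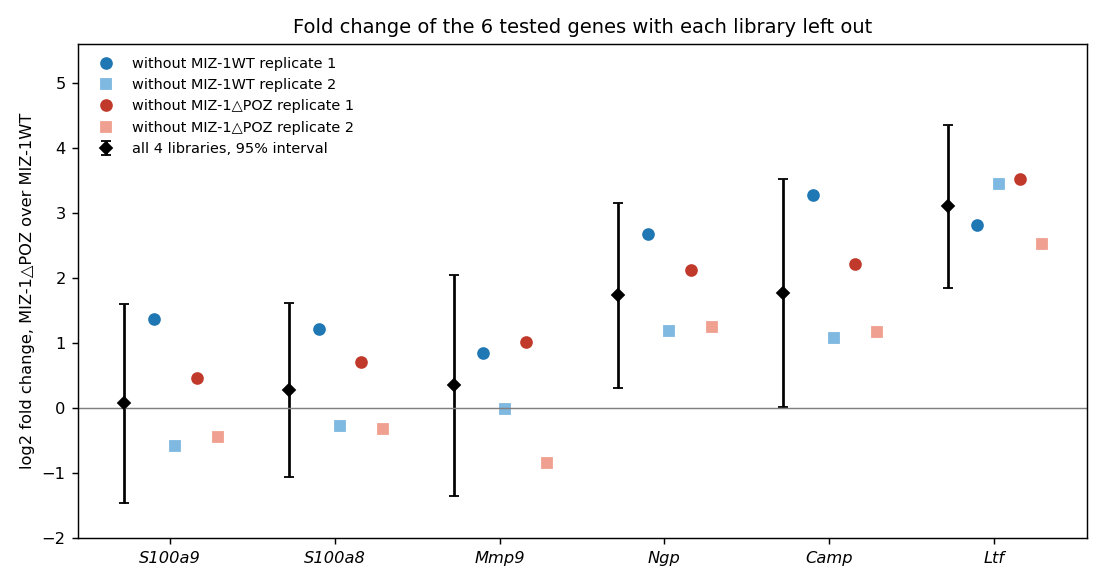
Log2 fold change of the 6 tested genes with all 4 libraries (black diamonds, bars give the 95% confidence interval of the edgeR fit) and with each library left out in turn (coloured points). The sign of *S100a8*, *S100a9* and *Mmp9* depends on the library left out, whereas all points of *Ltf*, *Ngp* and *Camp* lie above 0, between 2.52 and 3.53 for *Ltf*.

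The direction of 3 members was set by single libraries. Without MIZ-1WT replicate 2, the lowest library for 7 of the 10 genes, the log2 fold change of *S100a8* was -0.28 and that of *S100a9* was -0.59. Without MIZ-1△POZ replicate 2, the highest library for 9 of the 10, the values were -0.32 and -0.44. Without MIZ-1WT replicate 1 they were 1.22 and 1.37, and none of these values passed the threshold. The number of members that rose was 1 without MIZ-1WT replicate 2 (11.8% of all genes tested were higher in that fit) and 1 without MIZ-1△POZ replicate 2 (20.7%). It was 3 without MIZ-1△POZ replicate 1 (18.0%) and 0 without MIZ-1WT replicate 1 (9.39%).

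The mix of granule transcripts within each library was also compared. For every 100 counts of *S100a8* and *S100a9* together, the secondary granule genes *Ngp*, *Camp*, *Ltf* and *Lcn2* had 28.2 counts in MIZ-1△POZ replicate 1 (exact 95% interval 21.9 to 35.9) and 29.6 in replicate 2 (24.7 to 35.4). In MIZ-1WT replicate 1 they had 5.45 (3.67 to 7.82). In MIZ-1WT replicate 2 they had 16 counts beside 160, a ratio with an interval of 5.58 to 16.7 per 100. The intervals of both MIZ-1△POZ libraries thus lay above those of both MIZ-1WT libraries, although the summed level of all 10 genes was 8.42 and 16.9 CPM in the former. With *Ltf* set aside, *Ngp* and *Camp* had 3.87 (2.40 to 5.91) and 3.75 (1.36 to 8.34) counts per 100 in MIZ-1WT. In MIZ-1△POZ they had 11.8 (8.11 to 16.7) and 11.9 (9.04 to 15.4). Without *Ltf* the intervals did not separate fully, as that of MIZ-1WT replicate 2, from 6 counts, overlapped that of MIZ-1△POZ replicate 1. *Ltf* alone had 1.05 and 5.62 in MIZ-1WT, which differed between replicates, and 15.7 and 16.5 in MIZ-1△POZ. *Mmp9* did not follow the genotype, with 2.30 and 4.39 in MIZ-1△POZ, 2.64 in MIZ-1WT replicate 1 and 8 counts beside 160 in MIZ-1WT replicate 2. *S100a9* had between 122 and 168 counts per 100 counts of *S100a8* in the 4 libraries. These ratios were chosen after the counts were seen and carry counting error only, and no test between genotypes was run on them.

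**Figure D3:**
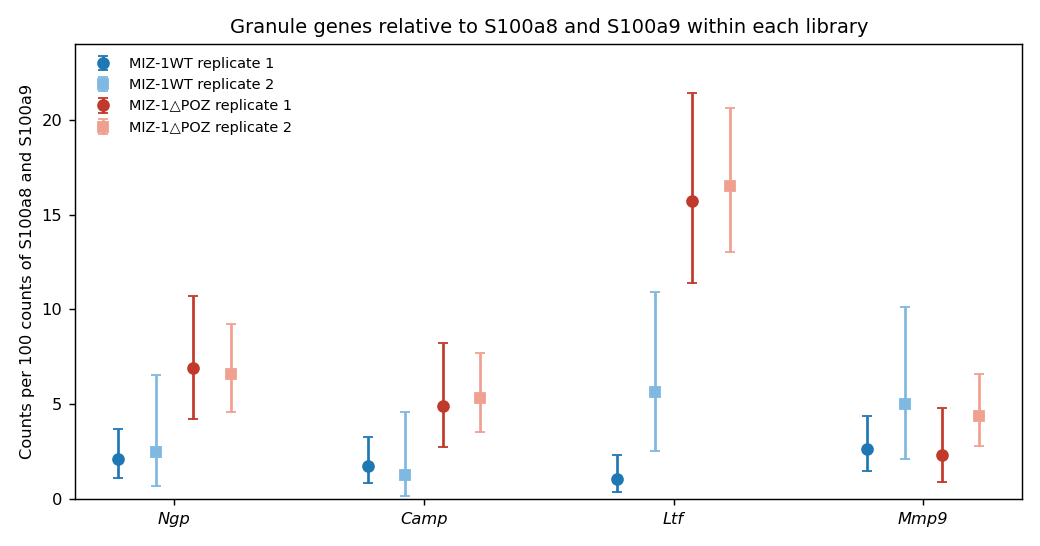
Counts of *Ngp*, *Camp*, *Ltf* and *Mmp9* per 100 counts of *S100a8* and *S100a9* together, in each of the 4 libraries, with exact 95% intervals for counting error. *Ngp*, *Camp* and *Ltf* are higher in both MIZ-1△POZ libraries (15.7 and 16.5 for *Ltf*) than in both MIZ-1WT libraries (1.05 and 5.62), and *Mmp9* is not. For *Ngp* and for *Camp* the interval of MIZ-1WT replicate 2 overlaps those of both MIZ-1△POZ libraries. For *Camp* the interval of MIZ-1WT replicate 1 (0.838 to 3.26) also overlaps that of MIZ-1△POZ replicate 1 (2.72 to 8.24).

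Other granule genes were counted from a list written for this purpose. For this list and those that follow, 21.1% of all genes tested were called higher and 18.9% lower. With a library left out, the shares higher were those given above for each fit. Of 11 further genes listed under secondary granules 7 were tested, with a median log2 fold change of 1.73, and 1 was higher in MIZ-1△POZ. The 7 include *Cd63* and *Anxa1*, which are not particular to secondary granules. This was *Lyz2*, lysozyme, with 1932 and 1755 counts in MIZ-1WT and 5324 and 9864 in MIZ-1△POZ (log2 fold change 1.97, edgeR adjusted p = 0.00651), which monocytes and macrophages express as well and the monocyte list also holds. *Chil3*, a chitinase-like lectin, had 25 and 7 counts in MIZ-1WT and 14 and 380 in MIZ-1△POZ, so that its log2 fold change of 3.57 (standard error 1.48, edgeR adjusted p = 0.106) came from 1 library. *Hp*, haptoglobin, had 23 and 4 counts in MIZ-1WT and 35 and 175 in MIZ-1△POZ (edgeR adjusted p = 0.0651). *Cd177*, a surface and granule glycoprotein of neutrophils, had 13 and 12 counts in MIZ-1WT and 25 and 63 in MIZ-1△POZ (edgeR adjusted p = 0.0565). For all 4 genes MIZ-1△POZ replicate 2 was the highest library. The other tested genes of the list changed less. *Pglyrp1* had 296 and 290 counts in MIZ-1WT and 332 and 404 in MIZ-1△POZ (log2 fold change 0.24), and *Cd63* had a log2 fold change of 1.03. *Anxa1* went the other way, with 667 and 639 counts in MIZ-1WT and 486 and 603 in MIZ-1△POZ (log2 fold change -0.35). None of them passed the threshold. *Olfm4* had 0 counts in every library. Without MIZ-1△POZ replicate 1, 4 of the 7 rose and the median was 2.29. Without MIZ-1△POZ replicate 2, 1 rose, 1 fell and the median was 0.85.

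Of 8 genes of tertiary granules and secretory vesicles 7 were tested, with a median of 1.54, and 5 were higher in MIZ-1△POZ. Over all genes tested, 21.1% were higher. The natural resistance transporter *Slc11a1* rose by 2.26 on the log2 scale, the formyl peptide receptors *Fpr1* and *Fpr2* by 2.08 and 1.85, alkaline phosphatase (*Alpl*) by 1.54 and integrin alpha M (*Itgam*) by 0.84. *Itgam* is in the monocyte list too, and its exons overlap those of *Gm49368* on the same strand over 68.7% of their length. *Slc11a1* had 4589 counts in MIZ-1△POZ replicate 1 and 2595 in replicate 2, and *Fpr1* had 1526 and 883, so these genes were higher in the MIZ-1△POZ library in which all 10 granule genes were lower. In MIZ-1WT replicates 1 and 2, *Slc11a1* had 663 and 723 counts and *Fpr1* 197 and 331. *Slc11a1*, *Fpr1*, *Fpr2* and *Alpl*, but not *Itgam*, thus had the library order of the macrophage list given further on, within both genotypes. The part of macrophages in these values was not tested. *Mmp8*, the neutrophil collagenase, had 18 and 5 counts in MIZ-1WT and 15 and 37 in MIZ-1△POZ, so the genotypes overlapped and MIZ-1△POZ replicate 2 was the highest library.

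Among 19 genes of the neutrophil cytosol and surface, 13 were tested, 4 were higher and 1 was lower, with a median of 0.90. Over all genes tested, 21.1% were higher and 18.9% lower. The G-CSF receptor *Csf3r* rose by 1.53 on the log2 scale, from 119 and 67 counts in MIZ-1WT to 321 and 251 in MIZ-1△POZ. *Trem1*, an activating receptor of neutrophils and monocytes, rose by 1.15, *Ifitm6* by 1.63 and *Retnlg* by 1.99. *Retnlg*, with 7 and 3 counts in MIZ-1WT and 15 and 28 in MIZ-1△POZ, passed the filter through the genotype in which it was high. *Cxcr2*, the chemokine receptor of mature neutrophils, had 51 and 23 counts in MIZ-1WT and 39 and 45 in MIZ-1△POZ, and its log2 fold change was 0.10 (standard error 0.40, edgeR adjusted p = 0.866). *Ly6g*, the surface marker that defines mouse neutrophils, had 0 and 1 counts in MIZ-1WT and 0 and 4 in MIZ-1△POZ, and the stefins *Stfa1* and *Stfa2* had 0 in every library. *Wfdc21* fell by 2.62 on the log2 scale, from 50 and 66 counts to 9 and 11 (edgeR adjusted p = 0.00366). The number higher was 2 without either MIZ-1WT replicate or without MIZ-1△POZ replicate 2, and 5 without MIZ-1△POZ replicate 1. The median was 0.34 without MIZ-1WT replicate 2 and 0.56 without MIZ-1△POZ replicate 2.

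Of 8 regulators of granulopoiesis 5 were tested, with a median of 1.18, and 3 were higher, against 21.1% of all genes tested. With a replicate block 2 were higher, against 18.1% of all genes tested. The median lay between 0.85 and 1.62 with a library left out. *Cebpa*, needed for the first steps of the granulocyte lineage, had 52 and 70 counts in MIZ-1WT and 230 and 198 in MIZ-1△POZ (log2 fold change 1.71, edgeR adjusted p = 0.00325). *Cebpb* rose by 1.62 and *Cebpd* by 1.18, and exons of both overlap genes on the opposite strand. In CPM, *Cebpa*, *Cebpb* and *Cebpd* had the library order of the macrophage list within both genotypes, and the part of macrophages was not tested. *Cebpe*, which is required for secondary granules, had at most 2 counts in a library. *Gfi1*, which represses monocyte genes in granulocyte precursors, had 242 and 151 counts in MIZ-1WT and 124 and 139 in MIZ-1△POZ (log2 fold change -0.66, edgeR adjusted p = 0.0833). *Spi1*, which encodes PU.1 and is active in B cells as well, had a log2 fold change of -0.03 (edgeR adjusted p = 0.729).

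All 11 genes of granule packaging, release and protease control were tested, with a median of 0.10, and 3 were higher and 2 lower. These counts lay close to the shares over all genes tested, 21.1% higher and 18.9% lower. The number lower was 1 when either MIZ-1WT library was left out, and with a library left out the median lay between 0.05 and 0.14. *Slpi*, an inhibitor of elastase and cathepsin G, rose by 2.11 on the log2 scale, from 743 and 1088 counts in MIZ-1WT to 5275 and 3246 in MIZ-1△POZ. Among the genes called higher here, *Slpi* and *Ctsc*, but not *Lyst*, had the library order of the macrophage list in CPM. The part of macrophages was not tested. *Serpinb1a*, an intracellular inhibitor of the same proteases, fell by 0.88, from 13517 and 14886 counts to 8130 and 8293 (edgeR adjusted p = 0.00172). *Ctsc*, the protease that activates elastase and proteinase 3, rose by 0.38, *Lyst* rose by 0.31, and *Srgn*, the proteoglycan that retains proteases in granules, fell by 0.19. Among 5 receptors of granule proteins 4 were tested and 3 were higher, against 21.1% of all genes, with a median of 1.08. *Slc22a17*, a receptor of lipocalin-2, rose by 2.16, the endocytic receptor *Lrp1*, which takes up lactoferrin, by 1.84 and *Tlr4*, which binds calprotectin, by 0.32. All 3 had the library order of the macrophage list in CPM as well. *Itln1*, which encodes a lactoferrin-binding lectin, had 0 counts in both MIZ-1WT libraries and 68 and 2 in MIZ-1△POZ replicates 1 and 2, so that its counts came from 1 library.

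**Figure D4:**
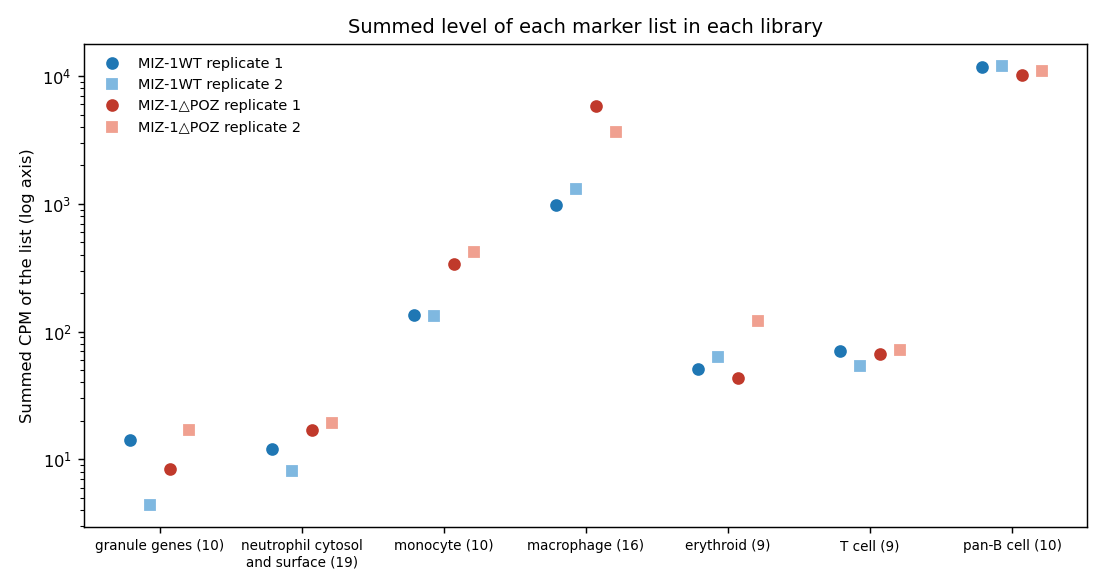
Summed CPM of 7 marker lists in each of the 4 libraries, on a log axis, with the number of genes in brackets. The granule genes are highest in MIZ-1△POZ replicate 2 (16.9 CPM) and lowest in MIZ-1WT replicate 2 (4.40 CPM), whereas the macrophage list is highest in MIZ-1△POZ replicate 1 and separates the genotypes.

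Markers of other cells moved with the genotype or with single libraries. Over all genes tested, 21.1% were higher and 18.9% lower. A list of 16 macrophage genes, *Vcam1* and *C1qa* among them, was higher in MIZ-1△POZ throughout, with a median of 2.00, and summed to 971 and 1295.0 CPM in the MIZ-1WT libraries, against 5813.4 and 3631.8 in the MIZ-1△POZ libraries (replicate 1 first). Its order within both genotypes was the reverse of that of *S100a8* and *S100a9*. Of 10 monocyte genes 8 were higher, with a median of 1.53, but 4 without MIZ-1WT replicate 1 and 6 without MIZ-1WT replicate 2. The list summed to 135 and 132 CPM in MIZ-1WT and 339 and 419 in MIZ-1△POZ. *Lyz2* alone had 112 and 225 CPM in MIZ-1△POZ replicates 1 and 2. *Treml4* (87.3 and 53.2 CPM), *Cd14* (31.2 and 13.8) and *Ms4a6c* (29.3 and 22.2) had the library order of the macrophage list within both genotypes. *Ccr2* (log2 fold change 0.25) and *Nr4a1* (-0.29) did not pass the threshold. *F13a1*, which monocytes express, had 32 and 30 counts in MIZ-1WT and 112 and 473 in MIZ-1△POZ. Of 9 erythroid genes matched, 1 (*Epor*) was higher, and the list summed to 50.6 and 63.0 CPM in MIZ-1WT and 43.3 and 120 in MIZ-1△POZ. Without MIZ-1△POZ replicate 1, 8 of the 9 erythroid genes were higher, and the list's median turned from 0.64 to -0.41 when MIZ-1△POZ replicate 2 was left out. Of 9 T cell genes 1 was higher (*Cd4*), with a median of 0.03, which lay between -0.19 and 0.30 with a library left out, and sums between 53.8 and 72.3 CPM. Of the 10 pan-B cell genes 7 were lower and 1 was higher (*Cr2*), with a median of -0.25, but 2 were lower and 0 higher when either MIZ-1WT library was left out. The part of these other cells in the granule gene values was not tested.

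The 10 genes with a profile over the 4 libraries nearest to the mean of the 6 tested members were *Mcemp1*, *Nlgn2*, *Xcr1*, *Skint3*, *Mmp8*, *Soat2*, *Cyp2ab1*, *Slc6a9*, *Zscan30* and *Aqp9*. Likeness was measured as the root mean square difference of log2 CPM (prior count 2) after each profile was centred on its mean. The mean profile of the members was -0.04 and -1.11 in MIZ-1WT replicates 1 and 2 and 0.05 and 1.10 in MIZ-1△POZ replicates 1 and 2. Single members departed from this mean. In the same order of libraries, *S100a9* had 0.81, -1.13, -0.29 and 0.61, and *Ltf* had -1.64, -1.13, 0.89 and 1.88. Likeness to the mean is therefore not likeness to each member. *Mcemp1*, which encodes a myeloid membrane protein and is in the list of neutrophil cytosol and surface genes, was the nearest, with a difference of 0.08 and with 22 and 10 counts in MIZ-1WT and 26 and 59 in MIZ-1△POZ. *Xcr1*, the chemokine receptor of cross-presenting dendritic cells, differed by 0.17, *Mmp8* by 0.18, and *Aqp9*, a glycerol channel of neutrophils, by 0.24. None of the 10 passed the threshold in the comparison of genotypes.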

How the data were processed

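RNA-seq of B220+ splenocytes was grouped by the labelled genotype. The authors trimmed reads (Trimmomatic), mapped them to mm10 (TopHat2) and deposited raw HTSeq counts per Ensembl gene, neither normalized nor pooled. HTSeq summary lines, 65.6% to 70.3% of a library, were set aside. GENCODE M21 named 40254 of the 41214 genes. A gene was tested if 2 or more libraries had 10 or more counts. Tests used edgeR version 4.0.16 (TMM, quasi-likelihood, Benjamini-Hochberg, threshold 0.05) in R version 4.3.3 and were tested on simulated data. Alternatives were DESeq2 version 1.42.0 (size factors, Wald test), no filter, a mean filter of 1 RPM, RPM without TMM factors, a replicate block and leaving out each library. The study calls the replicates biological but the labels name no animals, so p-values measure the spread between these samples.

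Named were the members, the 10 nearest profiles (immunoglobulin and T cell receptor segments and gene models without a proper name left out) and, from each list, up to 4 genes per direction with the largest change past the threshold and genes whose counts bear on a granule result. Other genes named were chosen after their values were seen. The members and lists were chosen with earlier results of these data known.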

Additional observations from a re-analysis of the deposited data

How the results depend on the processing

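The number of members that rose was 1 in the comparison as reported, 2 (*Ltf* and *Ngp*) with no filter on counts, where all 10 were tested and 14.6% of 21025 genes were higher, and 0 under the 1 RPM filter (23.4% of 12217 genes), where *S100a8* and *S100a9* were the members tested. With a library left out it ranged from 0 to 3. The median log2 fold change was 1.04, and 0.19 under the 1 RPM filter, and it ranged from 0.42 to 2.03 with a library left out. *S100a8* turned to -0.28 and -0.32, *S100a9* to -0.59 and -0.44 and *Mmp9* to -0.01 and -0.84 without MIZ-1WT replicate 2 and without MIZ-1△POZ replicate 2, while the highest values with a library left out were 1.22, 1.37 and 1.02. The cause was not tested. The summed CPM of the 10 genes moved by less than the spread between replicates without TMM factors. The labels number the replicates of both genotypes, but nothing ties libraries with the same number, and the deviations of same-numbered libraries from their group means correlated at -0.0688. With a replicate block, 1 member rose (18.1% of all genes were higher), *Ltf* had a log2 fold change of 3.08 (edgeR adjusted p = 0.00454), and the block changed no other member's call. Counts were under 10 in every library for 4 members.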

Other observations

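Lists of rarer cells were counted in the same libraries, in which 21.1% of all genes tested were higher and 18.9% lower. Of 9 genes of eosinophils, basophils and mast cells, 4 were tested and 3 were higher in MIZ-1△POZ, of which *Siglecf*, with 3 counts in each MIZ-1WT library and 13 and 10 in MIZ-1△POZ, passed the filter through the genotype in which it was high. *Prg2*, the eosinophil major basic protein, had 91 and 175 counts in MIZ-1WT and 544 and 346 in MIZ-1△POZ, and *Ear2*, an eosinophil-associated ribonuclease, had 80 and 176 in MIZ-1WT and 869 and 413 in MIZ-1△POZ. *Epx*, eosinophil peroxidase, had 0 counts in every library, as did the basophil protease *Mcpt8*. *Ms4a2*, the remaining gene tested, went the other way without passing the threshold. It had 17 and 7 counts in MIZ-1WT and 10 and 2 in MIZ-1△POZ (log2 fold change -1.08, edgeR adjusted p = 0.301). Of the untested genes, *Cpa3* had 6 and 2 counts in MIZ-1WT and 2 and 0 in MIZ-1△POZ. *Fcer1a* had 2 and 0 in MIZ-1WT and 0 in MIZ-1△POZ, and *Prss34* had 0 in MIZ-1WT and 1 and 5 in MIZ-1△POZ. With each library left out, 0 to 2 of the 4 genes were higher. In contrast to *S100a8*, *Prg2* and *Ear2* were higher in MIZ-1WT replicate 2 and in MIZ-1△POZ replicate 1 than in the other library of the genotype. That is the library order of the macrophage list, and the part of macrophages in these values was not tested.

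Of 6 genes of megakaryocytes and platelets 3 were tested and 1, *Pf4*, was higher, with 6 and 3 counts in MIZ-1WT and 25 and 15 in MIZ-1△POZ (edgeR adjusted p = 0.0273), a call lost without either MIZ-1WT replicate and without MIZ-1△POZ replicate 1. *Pf4* passed the filter through the MIZ-1△POZ libraries, in which it was high, and under DESeq2's Wald test 0 genes of the list were higher. Of 6 progenitor genes 3 were tested and 1, *Myb*, was lower, with 823 and 854 counts in MIZ-1WT and 600 and 566 in MIZ-1△POZ (log2 fold change -0.62, edgeR adjusted p = 0.0038). *Ms4a3*, a marker of granulocyte and monocyte progenitors, had 0 counts in both MIZ-1WT libraries and 1 and 2 in MIZ-1△POZ.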
